A study of Mus musculus with 9 samples.

Results

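The neurotrophin genes of hippocampal neurons were followed here through a caffeine experiment in the Tg4-42 mouse, an Alzheimer model. The set holds 7 genes, listed by name for their role, with earlier results of these data known: Bdnf and Ntf3 (the ligands BDNF and NT-3), Ntrk2 and Ntrk3 (their receptors TrkB and TrkC), Ngfr and Sort1 (the receptors p75 and sortilin, which bind the unprocessed ligands) and Vgf (a granule peptide precursor induced by BDNF). All 7 were found among the 48709 genes of the count files, and 6 had enough counts to be tested among 17361 genes. Ngfr did not.

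RNA was sequenced from nuclei of frozen hippocampus that had been stained for the neuronal protein NeuN and sorted. There were 3 libraries from vehicle-treated C57BL/6J wild-type (WT) mice, 3 from vehicle-treated Tg4-42 mice and 3 from Tg4-42 mice given caffeine in the drinking water at 300 mg/l for 4 months. Tg4-42 mice are on the C57BL/6J background and are homozygous for a transgene in which the murine Thy1 promoter drives human Aβ4-42 fused to the signal peptide of murine TRH. Treatment ran from 2 to 6 months of age, and the vehicle was tap water. The labels state the treatment of the caffeine mice alone, so the vehicle groups are named from the study's design. Caffeine-treated WT mice were not analysed here, so an effect of caffeine without the transgene could not be measured. The labels' protocol gives more hippocampi per group than libraries. It does not say whether tissue was pooled, and p-values then measure the spread between these libraries. The study's methods give n = 3 per group for this step. A library is called a mouse below, though whether each held tissue of a single mouse was not stated.

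Neurotrophins are secreted proteins that keep neurons alive and strengthen synapses. They are made as precursors, packed with granins into dense-core granules, and cut by furin and proprotein convertases or, outside the cell, by plasmin. BDNF acts through TrkB and NT-3 mainly through TrkC, and both receptors are also made as truncated forms that lack the kinase. The precursors act through p75 together with sortilin. In the adult hippocampus Bdnf is made by granule and pyramidal cells, Ntf3 mostly by dentate granule cells, and Ntrk2 by neurons and, chiefly in its truncated form, by astrocytes. A count per gene cannot tell the truncated forms from the full-length ones, nor one Bdnf promoter from another.

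Bdnf (ENSMUSG00000048482) lies on the forward strand at chr2:109674700-109727007 of the mouse genome build mm10, Ntrk2 (ENSMUSG00000055254) on the forward strand at chr13:58806569-59133970, and Ntf3 (ENSMUSG00000049107) on the reverse strand at chr6:126101412-126166910. Ntrk3 (ENSMUSG00000059146) lies at chr7:78175959-78738012 and Ngfr (ENSMUSG00000000120) at chr11:95568818-95587735, both on the reverse strand. Sort1 (ENSMUSG00000068747), at chr3:108284082-108361511, and Vgf (ENSMUSG00000037428), at chr5:137026392-137033351, are on the forward strand. An antisense gene shares 896 exon bases with Bdnf (Gm45346, 0 to 2 counts a library) and another 338 with Sort1 (Gm12523, 2 to 13 counts). Whether strand was used in counting was not stated, so reads over those bases cannot be assigned to one of the partners. The other genes annotated within Ntrk2, Ntrk3 and Sort1 share no exon base with them.

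RefSeq promoter windows, on build GRCm38.p6, were available for 4 of the 7 genes, with 7 for Bdnf, 2 for Ntf3, 1 for Ntrk2 and 1 for Ngfr. The 250 bases before the start of transcription are shown for Ntrk2, the receptor that passed the test below, for the ligand Ntf3, and for the Bdnf start site that carries the core of a cAMP response element. The motifs searched, on both strands, were the cAMP response element TGACGTCA, its core ACGTCA (which the full element contains), the E-box CACGTG, the GC box GGGCGG and the TATA box TATAAA. Capitals mark their matches.

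Ntrk2, chr13:58806319-58806568, forward strand: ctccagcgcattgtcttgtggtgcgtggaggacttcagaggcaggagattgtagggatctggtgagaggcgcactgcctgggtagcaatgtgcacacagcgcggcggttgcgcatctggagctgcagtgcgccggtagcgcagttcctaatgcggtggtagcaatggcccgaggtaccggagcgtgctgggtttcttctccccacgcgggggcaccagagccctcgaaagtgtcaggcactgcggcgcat
Ntf3, chr6:126164961-126165210, reverse strand: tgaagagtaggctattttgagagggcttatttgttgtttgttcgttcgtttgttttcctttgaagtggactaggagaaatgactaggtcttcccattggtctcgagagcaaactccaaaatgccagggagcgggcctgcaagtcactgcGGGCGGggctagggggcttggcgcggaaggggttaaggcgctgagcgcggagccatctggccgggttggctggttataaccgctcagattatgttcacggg
Bdnf, chr2:109692186-109692435, forward strand: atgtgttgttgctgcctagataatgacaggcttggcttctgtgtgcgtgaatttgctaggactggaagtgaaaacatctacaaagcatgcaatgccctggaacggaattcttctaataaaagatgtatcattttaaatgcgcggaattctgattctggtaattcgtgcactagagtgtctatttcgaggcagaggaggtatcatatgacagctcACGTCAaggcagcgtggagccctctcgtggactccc

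The Ntrk2 window is GC-rich (62.8%) and holds none of the 5 motifs. The Ntf3 window, before the downstream of its 2 start sites, has a GC box, as do 32.7% of all 32851 windows of this length. The Bdnf window is the single one of 7 for that gene with the ACGTCA core, which 6.47% of all windows carry. The full element occurs in 1.55% of all windows and in none of the 11 windows of these genes. A match is only a run of letters and says nothing of binding in these nuclei.

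Libraries held 9342945 to 16376922 exon counts. Levels are given as CPM, counts scaled to the TMM-adjusted library size, and 3 counts, taken as the detection floor, correspond to 0.190 to 0.325 CPM. Thy1, whose promoter the transgene carries, checked the genotype labels: it ran from 82.1 to 88.8 CPM in WT mice, from 461 to 639 CPM in vehicle-treated and from 509 to 670.1 CPM in caffeine-treated Tg4-42 mice. The Tg4-42 groups overlapped, so Thy1 could not check the caffeine label. The neuronal markers Rbfox3, Snap25, Syt1, Map2 and Tubb3 were present throughout. Counts for the Y-linked Ddx3y, between 108 and 157 CPM, were present in all 9 libraries. Library 3 of each group was read on lane 7 and the others on lane 6.

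Per kilobase of exon, Sort1 was the most abundant of the 7 genes in WT mice, at a mean of 32.9 CPM per kb, followed by Vgf (30.7), Bdnf (25.4), Ntf3 (18.7), Ntrk2 (12.6) and Ntrk3 (10.8). Ngfr was far lower, at 0.130 CPM per kb. Each gene overlapped the next in this order over the 3 WT mice, except that Ngfr (0.0911 to 0.188) stood below Ntrk3 (9.68 to 11.4). Exon length here is that of all annotated exons joined, which is long for Ntrk2 (19292 bases) and Ntrk3 (30170 bases) and lowers their values per kb. In vehicle-treated Tg4-42 mice Vgf headed the order at 37.5 CPM per kb, with a range that overlapped that of Sort1. In caffeine-treated mice it stood at 18.6, below Sort1, Ntf3 and Bdnf in every library. On this scale alone the means of the receptors changed places as well. Ntrk2 had a higher mean than Ntrk3 in vehicle-treated Tg4-42 mice (14.8 against 11.8 CPM per kb), with overlapping ranges, and in caffeine-treated mice it ranged from 8.59 to 9.89, below Ntrk3 at 11.9 to 13.2. Without division by length, Ntrk3 had the higher mean in each group. These means were 325 against 244 CPM in WT mice, 355 against 285 with vehicle and 373 against 180 with caffeine in Tg4-42 mice.

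**Figure D1:**
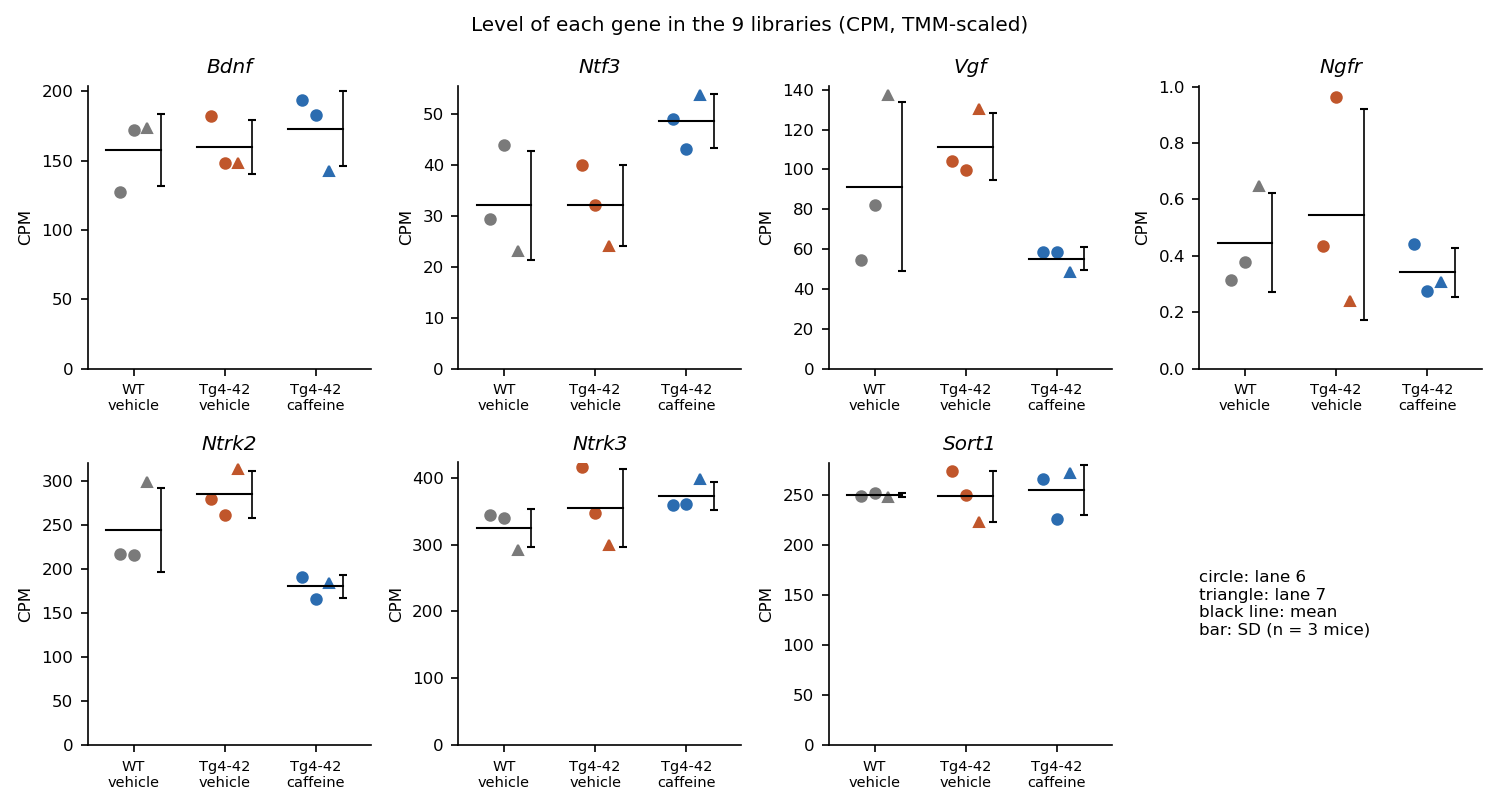
Level of each of the 7 genes (CPM, linear axes from 0) in the 9 libraries by group. Points are libraries, black lines means and bars SD over 3 mice. The caffeine-treated mice sit below vehicle-treated Tg4-42 mice for Ntrk2 (166 to 191 CPM) and above them for Ntf3.

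To ask what caffeine changed in Tg4-42 mice, the caffeine-treated and vehicle-treated groups were compared first. Ntrk2 fell and was the only one of the 6 tested genes to pass the threshold, an adjusted p under 0.05 in edgeR's quasi-likelihood test over all genes (called, below). Vgf was 50.5% lower than in vehicle-treated mice and Ntf3 was higher in every caffeine-treated mouse, but neither passed the test. Bdnf itself, Ntrk3 and Sort1 differed by less than the spread between mice. Over all genes, 0.881% were called in this comparison, 0.668% lower and 0.213% higher, set against 1 of 6 here. An unadjusted p under 0.05 was found for 3 of the 6 and for 17.0% of all genes, DESeq2 called 2 of the 6 and 5.12% of all genes with an adjusted p, and limma-voom 2 of the 6 and 3.56% of all genes. The counts of list genes below are to be read against these shares.

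Among the ligands, Bdnf had 194, 183 and 142 CPM in the caffeine-treated mice, 182, 148 and 148 CPM in vehicle-treated Tg4-42 mice and 128, 172 and 173 CPM in WT mice. The 3 groups overlapped. Caffeine-treated and vehicle-treated Tg4-42 mice differed by a log2 fold change of 0.12 (SE 0.15, 95% CI -0.20 to 0.44, adjusted p = 0.748), an interval that reaches from a level 0.868 times to one 1.36 times that of vehicle-treated mice. With 3 mice a group, changes within these bounds cannot be told from no change. Larger ones can also go uncalled, as the log2 fold changes of Ntf3 (0.60) and Vgf (-1.01) did.

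Ntf3 had 49.0, 43.1 and 53.6 CPM in the caffeine-treated mice against 39.9, 32.1 and 24.0 CPM in vehicle-treated Tg4-42 mice. In WT mice it had 29.3, 43.8 and 23.0 CPM. Every caffeine-treated mouse was above every vehicle-treated Tg4-42 mouse, whereas 1 WT mouse reached into the caffeine range. Groups that did not overlap, with caffeine higher, were found for 10.4% of all tested genes. For Ntf3 the log2 fold change was 0.60 (SE 0.22, 95% CI 0.13 to 1.08, adjusted p = 0.184), and 4.14% of all genes had a higher one. Between the lane 7 libraries the log2 difference was 1.15, and with the lane 6 libraries alone the log2 fold change was 0.37 (adjusted p = 0.892).

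Among the receptors, Ntrk2 had 191, 166 and 184 CPM in the caffeine-treated mice. Vehicle-treated Tg4-42 mice had 279, 261 and 313 CPM, and WT mice had 217, 216 and 299 CPM. All caffeine-treated mice were below all vehicle-treated Tg4-42 mice, and the WT mice are taken up in the third comparison. Compared with vehicle-treated Tg4-42 mice, Ntrk2 fell by 0.66 on the log2 scale (SE 0.14, 95% CI -0.96 to -0.36, adjusted p = 0.0457), a level 36.6% lower. Caffeine-treated mice without overlap below vehicle-treated Tg4-42 mice were found for 12.6% of all tested genes. The share of genes set apart from both vehicle groups was not counted.

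The call on Ntrk2 was close to the threshold. With the sequencing lane in the model the adjusted p was 0.0554, and with the lane 6 libraries alone the log2 fold change was -0.58 (adjusted p = 0.781). Leaving out 1 library at a time, Ntrk2 lost the call without caffeine library 2 (-0.60, adjusted p = 0.111), caffeine library 3 (-0.67, 0.278), vehicle library 1 (-0.67, 0.0858) or vehicle library 3 (-0.57, 0.257). It kept the call without caffeine library 1 or vehicle library 2. The log2 fold change stayed between -0.71 and -0.57 throughout, and between the lane 7 libraries the difference was -0.76.

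Ntrk3 had 359.8, 361 and 398 CPM in caffeine-treated mice, 417, 348 and 299.7 CPM in vehicle-treated Tg4-42 mice and 344, 339.6 and 292 CPM in WT mice. With caffeine its log2 fold change was 0.07 (SE 0.14, 95% CI -0.22 to 0.36, adjusted p = 0.824). Sort1 was the steadiest gene in WT mice, with 248, 252 and 248 CPM, and had 266, 226 and 271 CPM with caffeine and 273, 249 and 222 CPM with vehicle in Tg4-42 mice. Its log2 fold change was 0.04 (SE 0.12, 95% CI -0.22 to 0.29, adjusted p = 0.911). For both genes the direction turned when the lane 6 libraries were used alone (-0.07 each).

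Ngfr had 3 to 15 counts a library, at or not far above the floor. The caffeine-treated mice had 6, 4 and 4 counts, vehicle-treated Tg4-42 mice 4, 15 and 3, and WT mice 4, 6 and 10. At this depth a difference in p75 was not detectable. In the adult hippocampus p75 is mainly found on the axons of cholinergic neurons whose cell bodies lie outside it.

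Vgf had 58.4, 58.8 and 48.4 CPM in the caffeine-treated mice and 104, 99.5 and 131 CPM in vehicle-treated Tg4-42 mice. WT mice were widely spread, at 54.5, 82.2 and 137 CPM. The caffeine-treated and vehicle-treated Tg4-42 mice did not overlap, and the lowest WT mouse lay within the caffeine range. Vgf had a log2 fold change of -1.01 (SE 0.27, 95% CI -1.61 to -0.42), which did not pass the test (adjusted p = 0.104), and 2.18% of all genes had a lower one. With the lane 6 libraries alone it was -0.78, and between the lane 7 libraries the log2 difference was -1.43. DESeq2 called Vgf (adjusted p = 0.00407), as did limma-voom (0.0231) and edgeR on the 2 groups alone (0.0140).

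**Figure D2:**
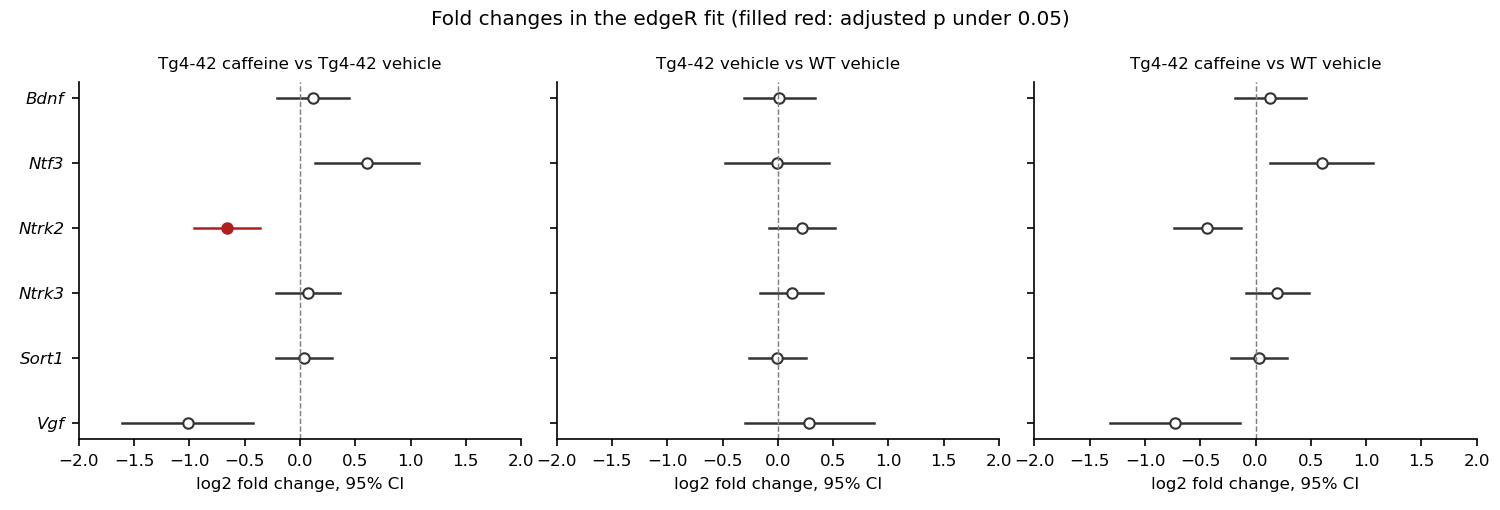
Log2 fold change (horizontal axis) of the 6 tested genes in the 3 comparisons, with 95% confidence intervals as lines. Ntrk2 under caffeine is the only filled point, and in the comparison of the vehicle groups all 6 intervals include 0.

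**Figure D3:**
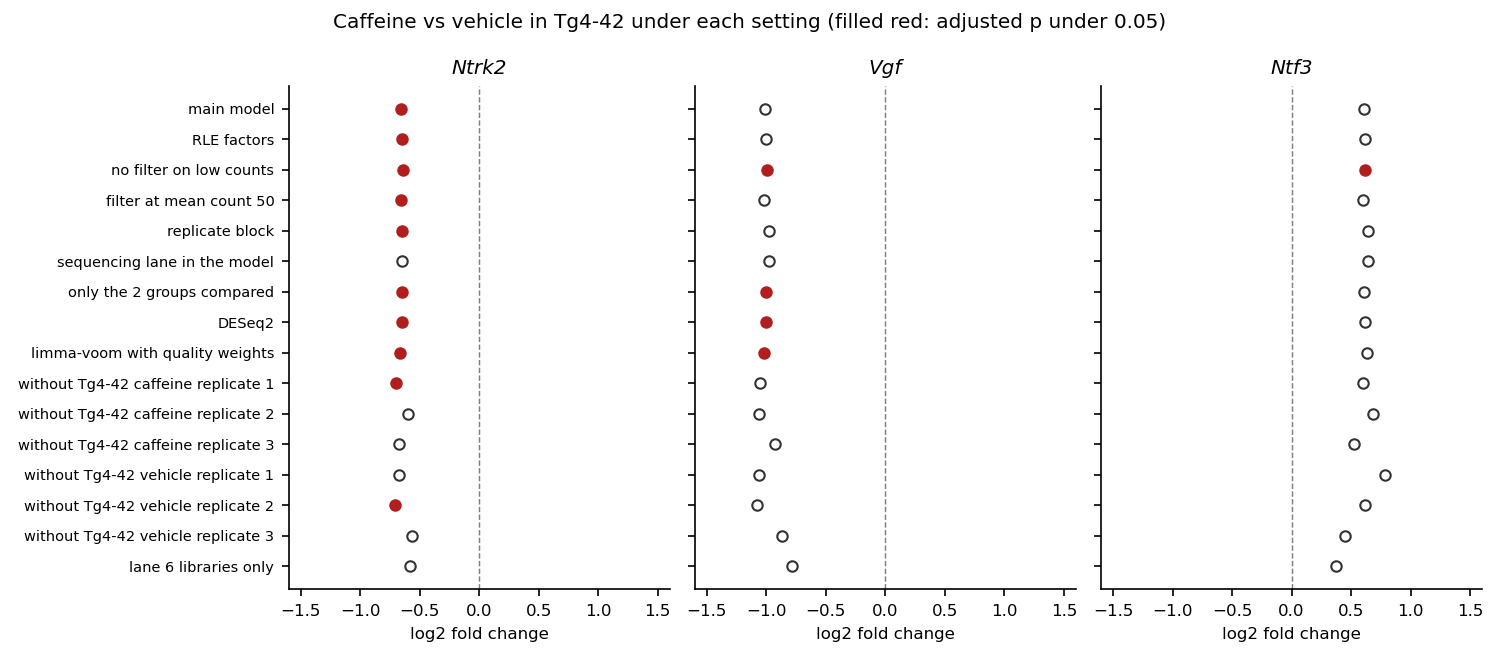
Log2 fold change with caffeine in Tg4-42 mice (horizontal axis) for Ntrk2, Vgf and Ntf3 under the main model and 15 other settings (rows), with adjusted p under 0.05 filled in red. Direction is the same in all rows, and the filled points change from row to row.

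The second comparison asked what the transgene changed, setting vehicle-treated Tg4-42 mice against vehicle-treated WT mice. None of the 6 genes was called by edgeR, with an adjusted p of 1.00 for each, where 0.0979% of all genes were called. None had an unadjusted p under 0.05 (0 of 6, against 2.74% of all genes), and none was called by DESeq2 (0.0955% of all genes) or limma-voom (0.0922%). None of the 6 had groups that did not overlap, where 6.73% of all genes did. The log2 fold change was 0.22 for Ntrk2 (95% CI -0.08 to 0.52), 0.28 for Vgf (-0.30 to 0.87) and 0.13 for Ntrk3 (-0.16 to 0.41). For Bdnf (-0.31 to 0.34), Ntf3 (-0.48 to 0.47) and Sort1 (-0.26 to 0.25) it was within 0.02 of 0. Bdnf, Ntf3, Ntrk3 and Sort1 changed sign between settings in this comparison.

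The third comparison set caffeine-treated Tg4-42 mice against WT mice. It shares its caffeine libraries with the first comparison and its WT libraries with the second. None of the 6 genes was called here either, by edgeR, DESeq2 or limma-voom (0 each), where 0.415% of all genes were called by edgeR. An unadjusted p under 0.05 was found for 3 of them and for 15.4% of all genes, while DESeq2 called 4.11% and limma-voom 0.611% of all genes. Ntrk2 was lower in all 3 caffeine-treated mice than in any WT mouse, with a log2 fold change of -0.44 (95% CI -0.74 to -0.14, adjusted p = 0.158). Ntrk3 was higher in all 3 (0.20, 95% CI -0.09 to 0.49, adjusted p = 0.504). For these 2 of the 6 genes the groups did not overlap, as for 18.8% of all genes. The log2 fold change of Ntf3 was 0.60 (adjusted p = 0.212) and that of Vgf -0.73 (adjusted p = 0.230), with overlapping groups. Bdnf (0.13) and Sort1 (0.03) had intervals that included 0.

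Bdnf and Ntrk2 counts were also set against each other within each library, a ratio chosen after their values were seen. An exact permutation test of 3 against 3 libraries cannot give a p under 0.1, so the ratios are given as a description. It was 1.02, 1.10 and 0.771 in caffeine-treated mice, 0.651, 0.567 and 0.474 in vehicle-treated Tg4-42 mice and 0.589, 0.799 and 0.580 in WT mice. The ratio was thus higher in each caffeine-treated mouse than in any vehicle-treated Tg4-42 mouse, while 1 WT mouse exceeded the lowest caffeine-treated one. For Ntf3 to Ntrk3 it ranged from 0.119 to 0.136 with caffeine, from 0.0801 to 0.0958 in vehicle-treated Tg4-42 mice and from 0.0788 to 0.129 in WT mice. Both ratios repeat the values of their genes and are no further evidence.

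The remaining neurotrophin ligands and receptors had no gene called by edgeR. Ntf5, which encodes the TrkB ligand NT-4, was too low to be tested, with 2 to 18 counts a library. Of the 12 genes of this list 10 were tested (4 at an unadjusted p under 0.05, 2 called by DESeq2, 0 by limma-voom), and 8 of the 10 had a log2 fold change below 0 with caffeine (median -0.24, against -0.01 over all genes). The sortilin relatives Sorcs1 and Sorcs3 had -0.66 (adjusted p = 0.202) and -0.36 (adjusted p = 0.142). Lingo1, a partner of the p75 and Nogo receptor complex, had -0.60 (adjusted p = 0.122).

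Among the genes for processing and release of the precursors, Serpini1 fell with caffeine. It encodes neuroserpin, an inhibitor of tissue plasminogen activator, the protease that makes plasmin. Its mean was 575 CPM (404 to 742) in caffeine-treated mice, 1179.6 CPM (873 to 1531) in vehicle-treated Tg4-42 mice and 1224 CPM (1132 to 1322) in WT mice. Serpini1 was called against both vehicle-treated Tg4-42 mice (log2 fold change -1.04, SE 0.22, adjusted p = 0.0462) and WT mice (-1.09, adjusted p = 0.0492). With the lane 6 libraries alone the first of these was -0.59 (adjusted p = 0.817), and the call was also lost with the replicate block (0.0515), with the lane in the model (0.0669) and with the 2 groups alone (0.0784). It held in 2 of the 6 fits without 1 library and was lost without the same 4 libraries as that of Ntrk2. Of the 11 tested genes of this list (14 in all), the other 10 were not called by edgeR. Over the whole list 3 had an unadjusted p under 0.05, and DESeq2 called 1 and limma-voom 2. The convertases Pcsk1 (-1.22, adjusted p = 0.390), Pcsk2 (-0.50, 0.159) and Pcsk6 (0.64, 0.513) had the largest changes among the uncalled genes, and the list's median was -0.28. Pcsk6 had only 8 to 28 counts a library, and Pcsk1 ranged from 11.8 to 52.3 CPM within the caffeine-treated mice.

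The list of granins, proteins of the dense-core granules that do not all have the same role, had 1 gene of 7 called by edgeR, lower with caffeine, where 0.668% of all genes were. An unadjusted p under 0.05 was found for 5 of them, and DESeq2 called 2 and limma-voom 3. Chga (chromogranin A) was at 189 CPM (SD 18.3) with caffeine, 277 CPM (SD 20.4) with vehicle in Tg4-42 mice and 252 CPM (SD 17.9) in WT mice, a log2 fold change of -0.55 against vehicle-treated Tg4-42 mice (SE 0.12, adjusted p = 0.0469). This call too was lost with the replicate block (0.0515), with the lane in the model (0.0695), with the lane 6 libraries alone (0.828) and without each of these 4 libraries. Scg3, which sorts chromogranin A into granules, had -0.73 (adjusted p = 0.0562), Chgb -0.49 (adjusted p = 0.149) and Scg5, the chaperone of Pcsk2, -0.40 (adjusted p = 0.197). In all, 5 of the 7 genes of this list were below 0 and 2 above, with a median of -0.40. Those above were Pcsk1n and Gnas, the latter with only 45 to 121 counts a library. Vgf, described above, is packed in the same granules.

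Among the genes that carry the signal inside the cell, edgeR called none. Of 35 Trk adaptors and kinases, 25 were above 0 and 10 below (median 0.13), 8 had an unadjusted p under 0.05, and DESeq2 called 1 and limma-voom 0. The list held Mapk3, which encodes ERK1, at 0.55 (adjusted p = 0.0813), the phospholipase Plcg2 at 0.63 (0.255) and the adaptor Gab1 at -0.57 (0.479). Of 15 partners of p75 signalling, 8 were above 0 (median 0.02), 3 had an unadjusted p under 0.05, and DESeq2 and limma-voom called 1 each. The list held the kinase Irak1 at 0.64 (0.0975) and the adaptor Tradd at 0.41 (0.389), with the γ-secretase subunit Aph1b at -0.36 (0.219). Of 16 tested regulators of Bdnf transcription (17 in all), 9 were above 0 (median 0.13), 4 had an unadjusted p under 0.05, and DESeq2 and limma-voom called 0. The activity-induced factor Npas4 had -0.45 (adjusted p = 0.666), a sign that turned with the lane 6 libraries alone, Mef2c -0.55 (0.482) and Usf2 0.53 (0.264).

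Between the vehicle groups no gene of these 6 lists was called by edgeR, DESeq2 or limma-voom, or had an unadjusted p under 0.05. Between caffeine-treated Tg4-42 and WT mice Serpini1 alone was called by edgeR, among 94 tested genes of the 6 lists. There, 25 of them had an unadjusted p under 0.05 (15.4% of all genes), and DESeq2 called 5 and limma-voom 1.

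**Figure D4:**
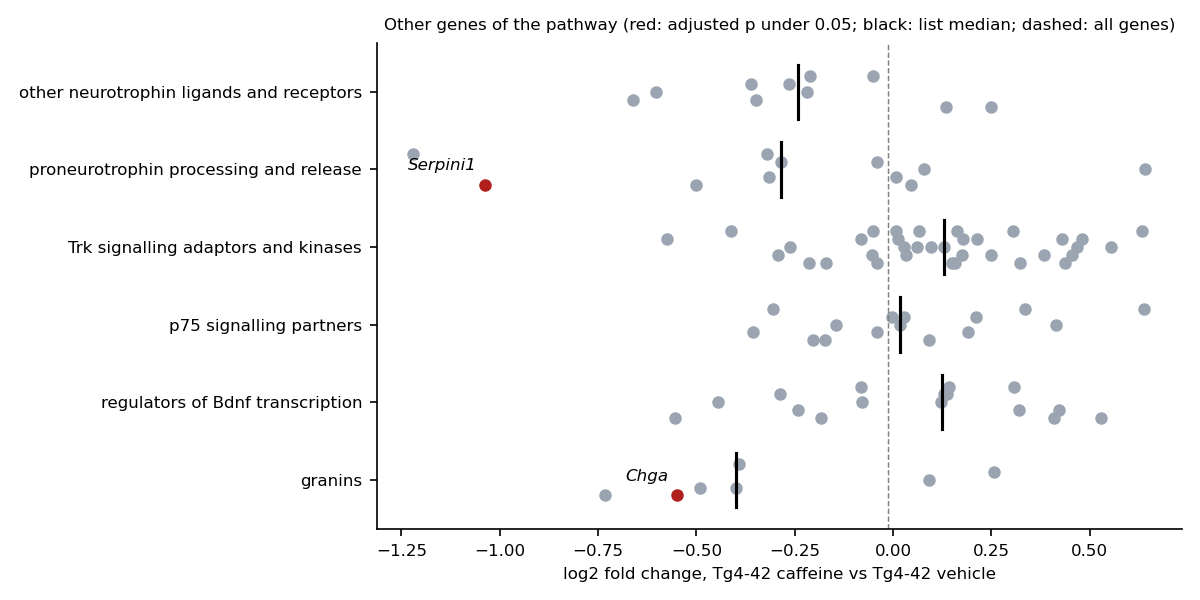
Log2 fold change with caffeine in Tg4-42 mice (horizontal axis) for each tested gene of the 6 lists of the pathway. Black bars mark list medians and the dashed line the median of all genes. Serpini1 and Chga, in red, are the called genes, and the granin median lies lowest at -0.40.

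Markers of the cells that make these genes were read in the same comparison of caffeine with vehicle in Tg4-42 mice. In bulk nuclei, fewer cells of a type and less RNA per cell cannot be told apart. All 12 dentate granule cell markers had a log2 fold change above 0 with caffeine (median 0.62), and 2 were called higher, Plk5 (1.52, adjusted p = 0.0385) and Stxbp6 (0.81, adjusted p = 0.0399), named here because they were called, where 0.213% of all genes were called higher. An unadjusted p under 0.05 was found for 7 of the 12, and DESeq2 called 5 and limma-voom 4. The summed level of the 12 markers was 1447 to 1745 CPM with caffeine, 805 to 1259.7 CPM with vehicle in Tg4-42 mice and 954 to 1213 CPM in WT mice, so that every caffeine-treated mouse was above every vehicle-treated one. Ntf3 was higher in the same mice than in vehicle-treated Tg4-42 mice. The part of dentate granule cells in the Ntf3 difference was not tested.

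Several other lists had mostly negative log2 fold changes, as Ntrk2 and Vgf did. Astrocyte markers, none of which was at 0 throughout a group, summed to 70.7 to 94.6 CPM with caffeine, 100.5 to 111 CPM with vehicle in Tg4-42 mice and 93.8 to 126 CPM in WT mice. Of the 7, 6 were below 0 (median -0.80) and edgeR called none (4 at an unadjusted p under 0.05, 1 called by DESeq2, 3 by limma-voom). Gfap had -0.86 (adjusted p = 0.0860), while Slc1a3, the most abundant, had 0.05 (0.881). Oligodendrocyte markers were below 0 in 7 of 7 (229 to 336, 332 to 466 and 292 to 439 CPM in the same order of groups) and microglial markers in 7 of 7 (42.7 to 52.5, 51.1 to 77.5 and 47.9 to 71.2 CPM), with no edgeR call in either (3 and 2 at an unadjusted p under 0.05, 2 and 0 called by DESeq2, 3 and 1 by limma-voom).

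The 5 general neuronal markers summed to 5129 to 6442 CPM with caffeine, 6077 to 7745 CPM with vehicle in Tg4-42 mice and 6599 to 6839 CPM in WT mice. Of these, 4 were below 0 with caffeine (median -0.23), and edgeR called none (3 at an unadjusted p under 0.05, 2 called by DESeq2, 2 by limma-voom). Rbfox3 was the 1 above 0 (0.28), at 126 to 148 CPM with caffeine and 99.6 to 117 CPM with vehicle in Tg4-42 mice. The sum mainly follows Syt1 and Snap25, with means of 2332 and 2475 CPM with caffeine, and so does not show a fall of every neuronal marker. Inhibitory markers were below 0 in 8 of 9, with 1 called, Slc32a1 (-0.93, adjusted p = 0.0462), and summed to 833 to 984 CPM with caffeine, 1033 to 1570.2 CPM with vehicle in Tg4-42 mice and 1033 to 1114 CPM in WT mice. Of the 9, 7 had an unadjusted p under 0.05, and DESeq2 and limma-voom called 1 each. CA1 markers (7 of 8 below 0, median -0.27) and markers of subiculum and neocortex (7 of 8, median -0.53) had no gene called by edgeR, each with 3 at an unadjusted p under 0.05, and DESeq2 called 1 and 2. In each of these 2 lists limma-voom called 1. Subiculum and neocortex markers summed to 167 to 264 CPM with caffeine, 288 to 349 CPM with vehicle in Tg4-42 mice and 279 to 350.3 CPM in WT mice. CA1 markers summed to 507 to 721 CPM with caffeine, 685 to 832 CPM with vehicle in Tg4-42 mice and 629.8 to 984 CPM in WT mice. CA3 and CA2 markers were above 0 in 7 of 8 (1 at an unadjusted p under 0.05, 1 called by DESeq2, 0 by limma-voom), and of 4 endothelial markers 1 could be tested. The part of these cell types in the Ntrk2 and Vgf differences was not tested.

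**Figure D5:**
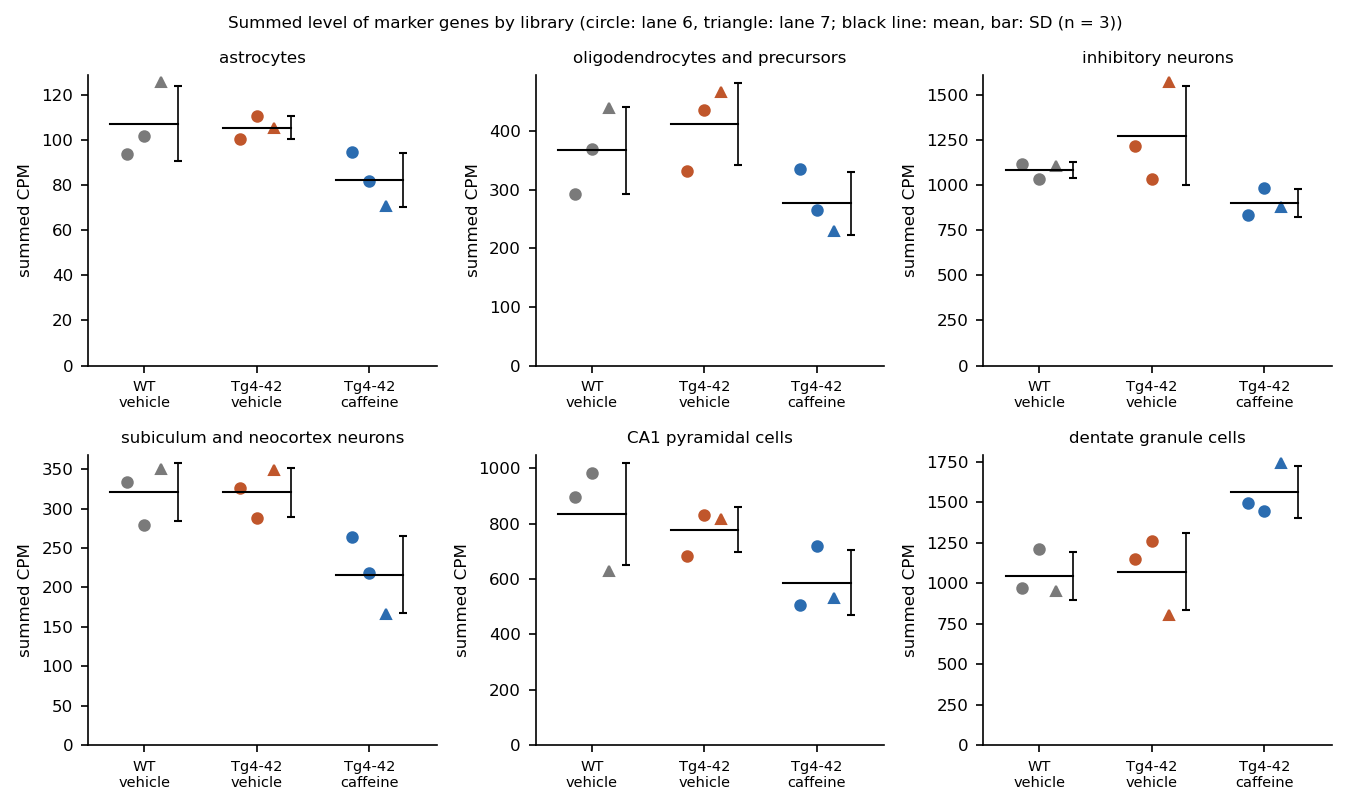
Summed CPM of 6 marker lists (linear axes from 0) by library and group, with means and SD over 3 mice. The caffeine-treated mice sit above both vehicle groups for dentate granule cells and below both for inhibitory neurons and for subiculum and neocortex neurons.

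The genes whose log2 CPM followed each member most closely over the 9 libraries were listed as a description, since all points share their libraries and depth. For Ntrk2 they were Spock1 (Pearson r = 0.966), Nfasc (0.966) and Ugt8a (0.962), of which Spock1 was itself called lower with caffeine (log2 fold change -0.90, adjusted p = 0.0385). For Vgf they were Sirpa (0.968), Vopp1 (0.967) and Chsy3 (0.966), for Ntf3 Capn3 (0.954), Tgfb2 (0.952) and Rogdi (0.950), and for Bdnf Bmp2k (0.963), Zfp362 (0.951) and Fam71d (0.922). Ntrk3 ran closest to Chd4 (0.975), Gm13314 (0.953) and Fam135b (0.949), and Sort1 to Celsr2 (0.937), Gm42067 (0.934) and Zfp503 (0.919). None of the 3 genes nearest to Bdnf, Ntf3, Ntrk3, Sort1 or Vgf was called between caffeine and vehicle.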

How the data were processed

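Nuclear RNA of 9 libraries was sequenced by the authors as single 50-base reads after SMART-Seq v4 and Nextera XT preparation, aligned to mm10 with STAR and counted over exons with featureCounts. Versions, annotation and strand setting are not given in the sources used here. The deposited values are raw exon counts per Ensembl gene, 1 file a library, with 0 columns of other samples. GENCODE M21 (GRCm38) gave 48349 of 48709 genes a symbol. Genes were tested in R 4.3.3 with edgeR 4.0.16 (filterByExpr with minimum counts 10 and 15, TMM, robust quasi-likelihood F test, 9 libraries in 1 model with group as the only term) and Benjamini-Hochberg adjustment over 17361 genes at 0.05. Standard errors came from the F statistic, and the log2 CPM used for correlations a prior count of 2. The test was checked on simulated counts. Settings tried were DESeq2 1.42.0, limma-voom (limma 3.58.1), RLE factors, no filter, a filter at a mean of 50 counts, the 2 groups alone, a replicate block, the lane, leaving out each library and, chosen after seeing the data, lane 6 alone. Libraries of a group differed by more than sampling noise (chi-square per gene 8.98 to 21.1). Floors cover counting error only.

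The members and gene lists were chosen with earlier results of these data known. Named were all members, called list genes, up to 3 further genes of each pathway list by size of change with caffeine, abundant markers, and the 3 genes nearest each member. Plk5, Stxbp6, Slc32a1, Rbfox3, Pcsk1n and Gnas fall outside this rule. Some genes of the pathway lists are not reported here.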

Additional observations from a re-analysis of the deposited data

How the results depend on the processing

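In Tg4-42 mice 153 genes were called with caffeine against vehicle. This number was 987 without the filter on low counts, 747 with DESeq2, 618 with limma-voom, 9 with the lane in the model, 0 to 341 with 1 library left out (0 without caffeine library 3 or vehicle library 3), and 0 with the lane 6 libraries alone, where edgeR gave 956 genes at an unadjusted p under 0.05. Between the vehicle groups it was 17, and 74 without the filter (14 to 18 with 1 library left out). Between caffeine-treated Tg4-42 and WT mice it was 72, and 860 without the filter, 553 with DESeq2, 42 with the lane, 17 with lane 6 alone and 16 to 287 with 1 library left out. The cause of these shifts was not tested, beyond the fewer libraries of some fits. Of the genes called with caffeine, 37 of 153 were higher in the main model, 279 of 747 with DESeq2, 182 of 618 with limma-voom and 357 of 987 without the filter.

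Over all settings the member results kept direction and side of the threshold in 237 of 270 fits, and those of the pathway genes in 265 of 313. Most of these results were not called in the main model, so these counts mostly show uncalled results staying uncalled. Among the members only Ntrk2 with caffeine was called there. For it, 7 of 9 other settings gave the call, and the adjusted p ran from 0.000659 to 0.781. With 1 library left out, 2 of 6 fits gave the call. The Ntrk2 result was weaker with the lane (log2 fold change -0.65) and with lane 6 alone (-0.58), and was -0.71 to -0.57 with 1 library left out. Vgf passed the threshold without the filter (-0.997, adjusted p = 6.19e-09), with the 2 groups alone (-1.01), DESeq2 (-1.004) and limma-voom (-1.02), and had -1.08 to -0.87 with 1 library left out, never called. Ntf3 passed without the filter alone (0.62, adjusted p = 0.00622), with 0.45 to 0.79 leaving out 1 library. The fit without the filter took all 30820 genes with a count and called 987 with caffeine, against 153 of 17361 in the main model. The main model gave Vgf -1.01 and Ntf3 0.60, so the far smaller adjusted p without the filter came with little change in the log2 fold change.

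Among the members and named pathway genes, the results that changed sign had log2 fold changes near 0, other than Npas4 (-0.45). With lane 6 alone they were Ntrk3 with caffeine (-0.069), Sort1 in the order of the comparisons above (-0.071, 0.052 and -0.018) and Npas4 with caffeine (0.024). Between the vehicle groups Bdnf turned to -0.0073 with limma-voom, and Ntf3 to 0.00022 with the mean count filter, 0.00046 with the replicate block and 0.019 with limma-voom. With 1 library left out, the vehicle groups gave -0.12 to 0.082 for Bdnf, -0.21 to 0.29 for Ntf3, -0.0061 to 0.22 for Ntrk3 and -0.079 to 0.059 for Sort1. Caffeine against vehicle gave -0.021 to 0.20 for Ntrk3 and -0.023 to 0.11 for Sort1, and caffeine against WT -0.018 to 0.11 for Sort1.

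The replicate numbers follow accession order, and no label says that they pair mice. Number 3 is the lane 7 library of each group. With the number as a replicate block, 187, 16 and 82 genes were called in the 3 comparisons, Ntrk2 with caffeine had an adjusted p of 0.0347 and Vgf 0.0866. The correlation of deviations between same-numbered libraries was 0.152, 0.181 and -0.171 for caffeine and vehicle in Tg4-42 mice, -0.170, 0.0075 and -0.106 for caffeine and WT, and 0.188, 0.138 and 0.156 for the vehicle groups. In the last of these each library correlated best with its own number. Deviations were taken from the mean of the 3 libraries of a group and so sum to 0. The 3 matches are therefore not independent and cannot show that mice were paired. Depth limits Ngfr and Ntf5, which had 2 to 18 counts a library.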
